A study of Mus musculus with 36 samples.

Results

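A set of 10 genes of interleukin 6, interleukin 1 and STAT3 signalling was followed through the livers of 36 male C57Bl/6J mice: the receptor genes Il6ra, Il6st and Il1r1, the cytokine gene Il1b, the antagonist gene Il1rn, the transcription factor genes Stat3, Cebpb and Cebpd, and the feedback inhibitor genes Socs3 and Nfkbia. They were chosen by symbol: every probe other than a control whose gene name was 1 of these 10 was taken, which gave 18 of 56605 probes. The 10 genes are 10 of 37325 genes on the array, and all 10 were among the 24250 genes bright enough to be tested. RNA from 1 liver per array was labelled with Cy3 and read in a single colour, and the 36 arrays formed 6 groups of 6. CTRL names the control mice, and AAKO names mice without Pnpla2 function in white adipose tissue, where its product ATGL, a triglyceride lipase, begins the breakdown of stored fat. Liver was therefore not the tissue in which the deletion was placed. Each genotype had a group on standard diet, a group after a 24 h fast, and a fed group that received CL316243 by gavage (3 mg/kg, in carboxymethyl cellulose) at Zeitgeber time 10. CL316243 stimulates the beta 3 adrenergic receptor, through which adipocytes are made to break down fat. Zeitgeber time 16, which falls in the dark part of a 12 h light and dark cycle, was the time of killing for all groups. The fed groups are labelled experiment 2 and the other groups experiment 1, so a difference from the fed groups cannot be told apart from a difference between experiments. A gavage is labelled for the CL316243 groups alone, so the drug cannot be told apart from gavage and vehicle in any comparison with fed or fasted mice. Differences between genotypes within a condition lie within 1 experiment.

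Interleukin 6 binds its own receptor, encoded by Il6ra, which then pairs with gp130, the shared chain encoded by Il6st. The receptor's kinases activate STAT3, which turns on Socs3, a feedback inhibitor, and in hepatocytes the genes of acute phase plasma proteins together with C/EBP beta and C/EBP delta. Interleukin 1 beta (Il1b) acts through Il1r1 on NF-kB, whose inhibitor IkB alpha (Nfkbia) is itself an NF-kB target, and the antagonist encoded by Il1rn occupies that receptor without signalling. The arrays measured RNA and not the phosphorylation of STAT3 or the activity of NF-kB.

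Promoter sequence was taken for the genes whose upstream window held letters that match a binding motif of these factors. Such a match does not show binding, which was not measured. RefSeq windows on GRCm38.p6 cover the 250 bases before a transcript start, and 9 of the 10 genes had at least 1 window. Motifs were searched on both strands as letters: STAT as TTCNNNGAA, C/EBP as TTNCGNAA, the cyclic AMP response element as TGACGTCA, and NF-kB by its usual consensus. Of 32817 windows of that length, 7.01% held the STAT letters, 2.04% the C/EBP letters, 1.55% the cyclic AMP element and 3.90% the NF-kB letters. The Socs3 window (chr11:117969367-117969616, minus strand) held a STAT match at bases -154 to -146 from the start. The Nfkbia window (chr12:55492648-55492897, minus strand) held an NF-kB match at -29 to -20, and the Il6ra window (chr3:89913197-89913446, minus strand) held a C/EBP match at -116 to -109. These windows are shown 5′ to 3′ with the match in capitals.
Socs3: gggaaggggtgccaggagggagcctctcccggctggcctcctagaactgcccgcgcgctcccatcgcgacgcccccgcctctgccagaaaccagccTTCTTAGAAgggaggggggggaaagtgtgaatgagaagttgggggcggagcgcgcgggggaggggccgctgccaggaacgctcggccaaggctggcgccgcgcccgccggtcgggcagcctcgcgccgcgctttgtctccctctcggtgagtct
Nfkbia: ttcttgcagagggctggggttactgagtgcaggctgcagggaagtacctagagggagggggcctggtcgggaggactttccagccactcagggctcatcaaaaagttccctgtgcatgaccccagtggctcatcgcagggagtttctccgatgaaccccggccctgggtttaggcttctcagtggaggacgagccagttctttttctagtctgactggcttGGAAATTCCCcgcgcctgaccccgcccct
Il6ra: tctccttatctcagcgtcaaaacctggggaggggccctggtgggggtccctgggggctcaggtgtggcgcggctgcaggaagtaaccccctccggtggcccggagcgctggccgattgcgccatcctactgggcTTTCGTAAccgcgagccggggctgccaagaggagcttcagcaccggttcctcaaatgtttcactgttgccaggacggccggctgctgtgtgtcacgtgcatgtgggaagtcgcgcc
The second of the 2 Il1r1 windows also held an NF-kB match, at -232 to -223. No match was found in the windows of Il6st, Stat3, Il1b, Il1rn and Cebpb, which says only that those letters do not occur there.

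In fed mice none of the 10 genes passed the test between genotypes, and after a fast or after CL316243 most did. Differences were taken from 1 limma fit over all 36 arrays with the wash batch as a term, and "called" means a Benjamini-Hochberg adjusted p under 0.05, taken over all 24250 genes. Between AAKO and CTRL, 0 of 10 members were called in fed mice (0.0784% of all genes, 0.0412% higher and 0.0371% lower), with 2 members and 1645 genes at an unadjusted p under 0.05. After the fast 9 of 10 were called (49.2% of all genes, 22% higher and 27.2% lower), with Il6ra, Il6st, Stat3, Il1r1, Cebpb, Cebpd and Nfkbia higher in AAKO and Il1b and Il1rn lower. With CL316243, 7 of 10 were called (24.5% of all genes, 12.9% higher and 11.6% lower), with Il6st, Stat3, Socs3, Il1b, Il1r1 and Cebpd higher in AAKO and Il1rn lower. The median member differed by 0.19, 0.86 and 0.60 on the log2 scale in the fed, fasted and CL316243 comparisons, where the median of all genes differed by 0, -0.03 and 0.03. The groups did not overlap for 0, 5 and 5 members, against 0.689%, 21.3% and 11.3% of all genes.

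**Figure D1:**
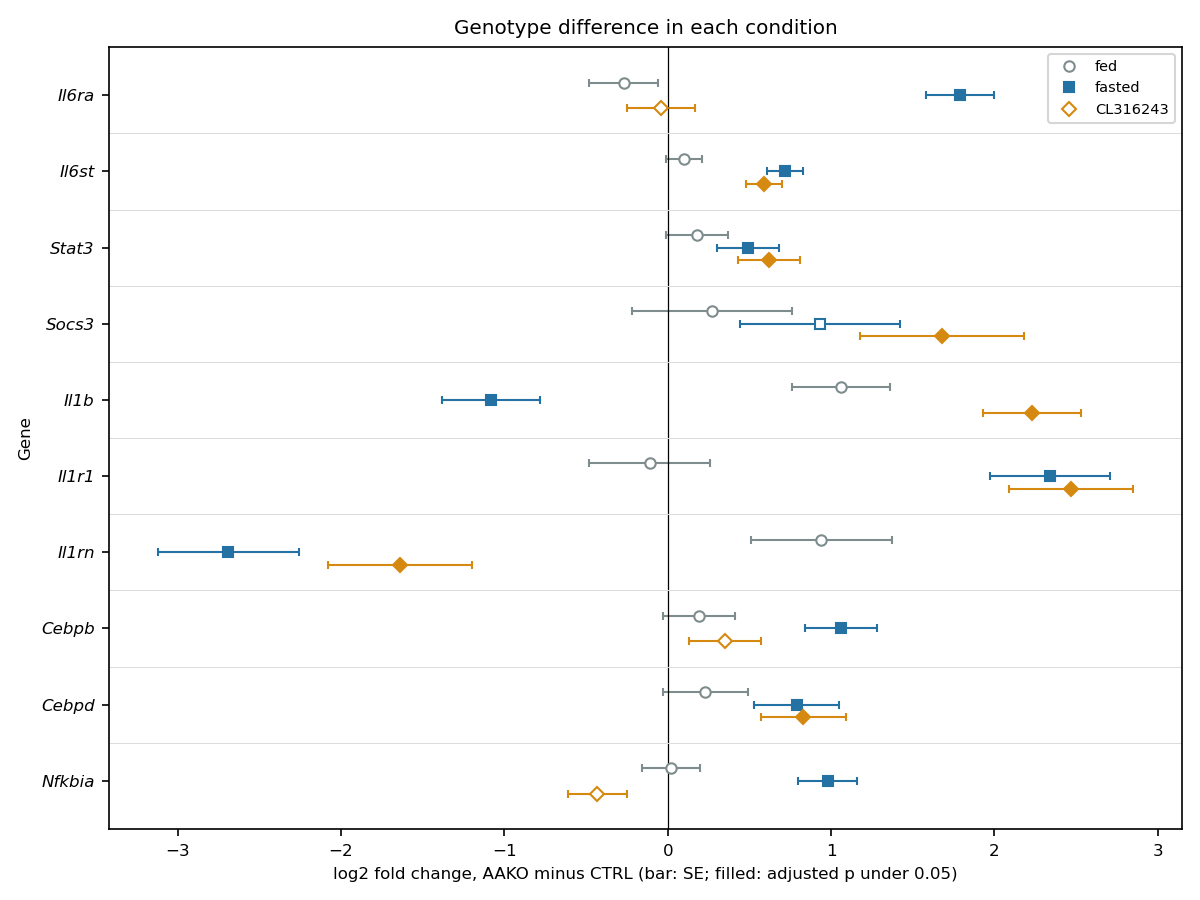
Log2 fold change of AAKO minus CTRL (x axis, with SE bars) for each gene (y axis) in fed (circles), fasted (squares) and CL316243 (diamonds) mice, filled where the adjusted p was under 0.05. No fed point is filled, Il1r1 lies near 2.4 in both other conditions, and Il1b is -1.08 after the fast and 2.23 with CL316243.

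Levels are log2 signals minus the 75th percentile of their array, so that 0 is the brightness of that percentile, and probe positions are on mm9 as the array files give them. The files do not place a probe in an exon or an untranslated region. A level is compared only with other levels of the same probe. One array, CTRL fasted replicate 2, lay apart from its group for several members: it had the highest Il6ra (5.79), Il1r1 (5.01), Nfkbia (5.55), Cebpd (5.18), Cebpb (6.50) and Il6st (2.55) of the CTRL fasted arrays and the lowest Il1b (-1.96). Its summed signal of 8 neutrophil marker genes was 6.33, the highest of its group. Of the 61 differences called among the members, over 12 comparisons, 60 were called without it, and results that rest on it are given both ways.

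**Figure D2:**
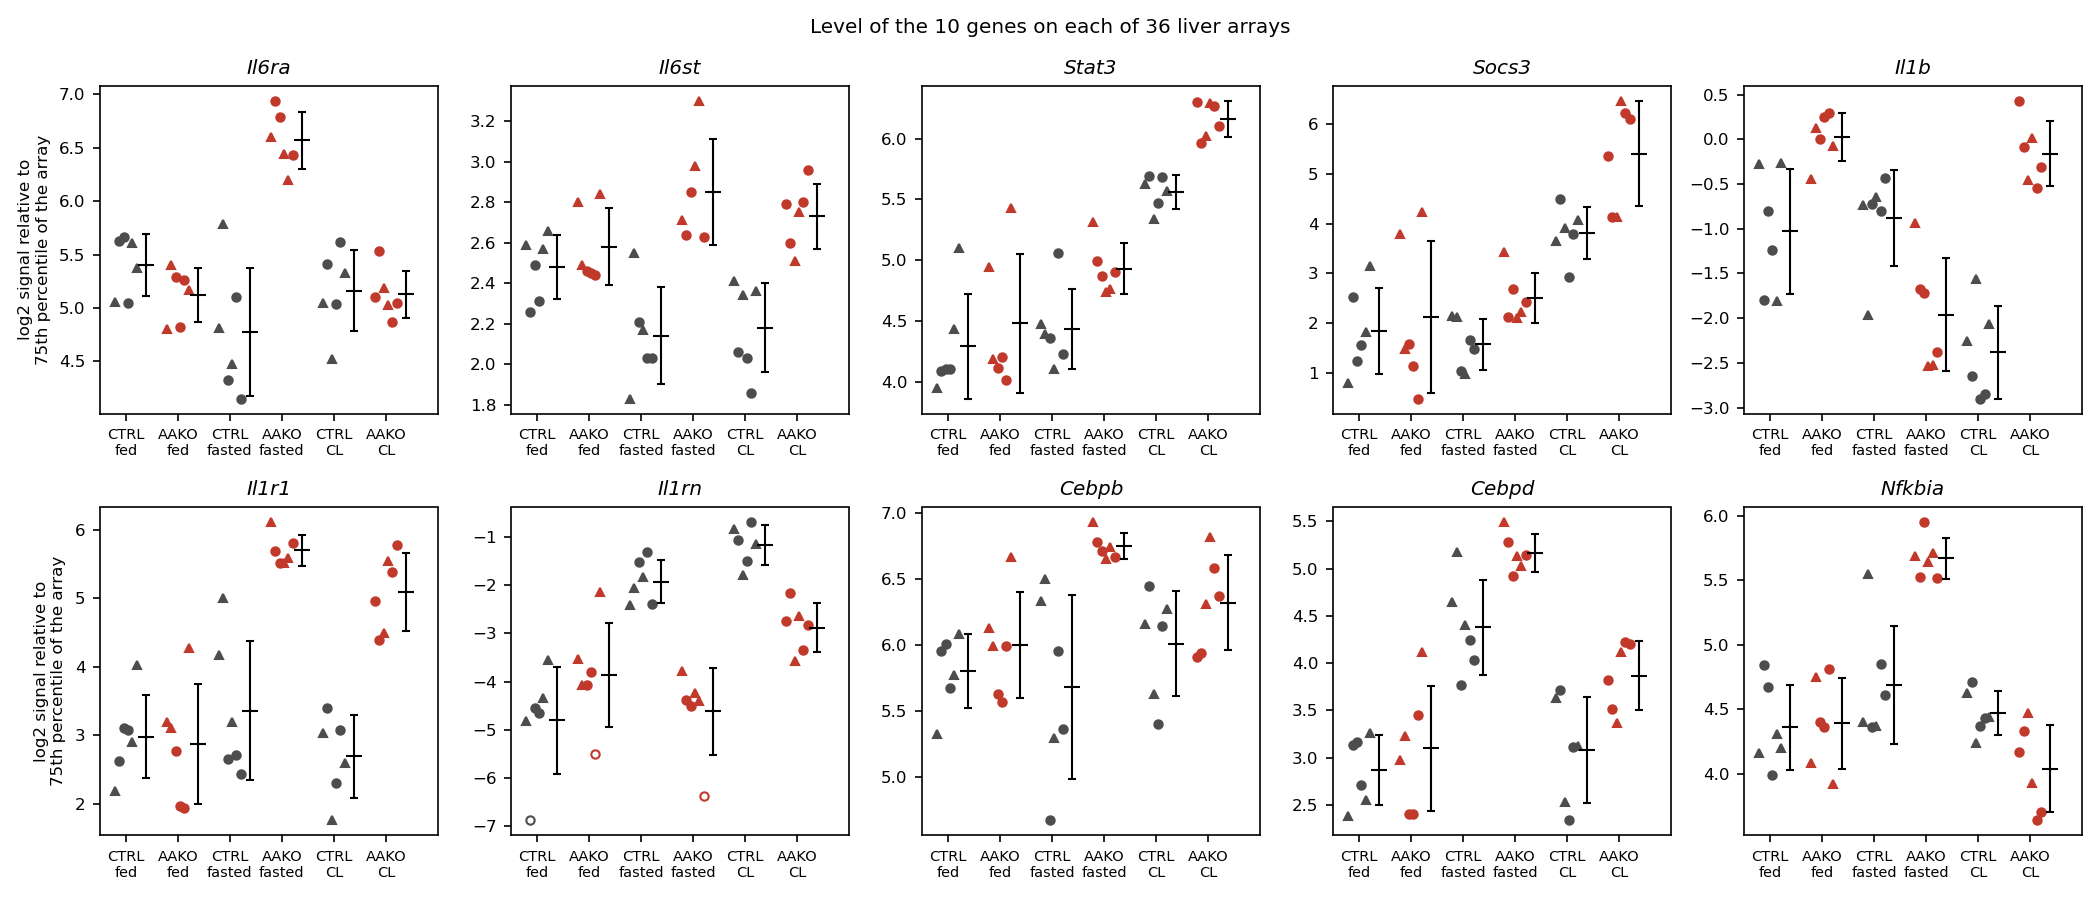
Log2 signal minus the array's own 75th percentile (y axes, scaled per gene) on each of the 36 arrays, by group (x axes), for the main probe of each gene. Circles are wash batch 1 and triangles wash batch 2, grey is CTRL and red AAKO, open symbols were not well above background, and bars give the mean ± SD of 6 mice. AAKO fasted arrays stand alone at the top for Il6ra (6.20 to 6.94) and AAKO CL316243 arrays for Stat3 (5.96 to 6.30).

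Il6ra, the receptor that binds interleukin 6, was highest in fasted AAKO livers. Its main probe (chr3:89674054-89674113) read 5.05 to 5.66 in CTRL fed mice with a median of 5.49, 4.15 to 5.79 (median 4.64) in CTRL fasted, and 4.52 to 5.62 (median 5.19) in CTRL CL316243. In AAKO mice it read 4.80 to 5.40 (median 5.21) fed, 6.20 to 6.94 (median 6.52) fasted and 4.87 to 5.53 (median 5.08) with CL316243. All 6 AAKO fasted arrays lay above all other arrays, and the other groups overlapped their neighbours in the order of means. AAKO fasted livers had 3.46-fold more than CTRL fasted livers (log2 fold change 1.79 ± 0.21, SE, limma adjusted p = 1.35e-08), with 2.20 and 1.39 within wash batches 1 and 2, and 2.01 without CTRL fasted replicate 2. The difference between fasted and fed mice depended on genotype. Against fed mice Il6ra fell by 0.62 in CTRL (adjusted p = 0.0138) and rose by 1.44 in AAKO (2.72-fold, adjusted p = 2.69e-07), and the interaction was 2.07 ± 0.29 (adjusted p = 1.79e-06). The CTRL fall was not called without CTRL fasted replicate 6 (-0.49, adjusted p = 0.0552), within wash batch 2 (-0.32), after quantile normalization or in the authors' value table. Nor was it called on the second probe (-0.46, adjusted p = 0.0629). Against CL316243, the fasted CTRL level was not called lower (-0.39, adjusted p = 0.145), and it was called without CTRL fasted replicate 2 (-0.60, adjusted p = 0.00814). CL316243 left Il6ra with a difference of 0 ± 0.21 from fed mice in AAKO and -0.24 ± 0.21 in CTRL. The second probe of Il6ra gave 1.43 ± 0.20 for the fasted genotype difference.

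Il6st, the shared gp130 chain, was higher in AAKO than in CTRL livers after the fast and with CL316243, by 1.5 to 1.6 times. Its main probe (chr13:113296586-113296645) read 2.26 to 2.66 (median 2.53) in CTRL fed, 1.83 to 2.55 (median 2.10) in CTRL fasted and 1.86 to 2.41 (median 2.20) in CTRL CL316243 mice. Its AAKO range was 2.44 to 2.84 (median 2.47) fed, 2.63 to 3.30 (median 2.78) fasted and 2.51 to 2.96 (median 2.77) with CL316243. The AAKO groups lay above the CTRL groups of the same condition without overlap after the fast and with CL316243, and overlapped them when fed. The fasted difference was 1.64-fold (0.72 ± 0.11, adjusted p = 1.24e-06; 0.62 and 0.81 within the wash batches), and the CL316243 difference was 1.5-fold (0.59 ± 0.11, adjusted p = 9.83e-05; 0.80 and, not called, 0.26). Its smaller differences lay near the threshold, so that leaving out any of several arrays lost the call with little change in size. The interaction of CL316243 with genotype (0.49 ± 0.15, adjusted p = 0.0296) was not called without CTRL fed replicate 6, AAKO fed replicate 2, CTRL CL316243 replicate 5 or AAKO CL316243 replicates 5 or 6 (0.44 to 0.47). The fall of Il6st with CL316243 in CTRL (-0.31, adjusted p = 0.0346) was not called without any 1 of CTRL fed replicates 1, 3, 5 or 6 or CTRL CL316243 replicates 2, 4 or 5 (-0.31 to -0.26). Against fed mice, the fast gave -0.35 in CTRL (adjusted p = 0.00808) and 0.27 in AAKO (adjusted p = 0.0243), with an interaction of 0.62 ± 0.15 (adjusted p = 0.00156). Neither value was called within either wash batch alone (-0.27 and -0.42 in CTRL, 0.26 and 0.29 in AAKO). For the CTRL fall the second probe gave -0.12 (adjusted p = 0.496). The AAKO value was not called without AAKO fed replicate 2 (0.24) or AAKO fasted replicate 5 (0.20).

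The probes of Il6st disagreed. The second probe was higher in AAKO by 0.34 ± 0.13 after the fast (adjusted p = 0.0303) and by 0.32 ± 0.13 with CL316243 (adjusted p = 0.0670), and it rose with CL316243 in CTRL by 0.56 (adjusted p = 0.00163) where the main probe fell. Its interactions were 0.03 and 0.02. The third probe was well above background on 5 AAKO fasted arrays and on 0 or 1 arrays of each other group, so its level elsewhere is only a bound. The genotype difference after the fast was called higher in AAKO on the main and second probes of Il6st, at 0.72 and 0.34. The third probe was also called, at 1.87, but against a CTRL level near background, so its size is not known.

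Stat3 RNA, which encodes the factor that interleukin 6 activates, was highest with CL316243 in both genotypes. The main probe (chr11:100749598-100749657) read 3.95 to 5.10 (median 4.10) in CTRL fed, 4.10 to 5.06 (median 4.38) in CTRL fasted and 5.34 to 5.69 (median 5.60) in CTRL CL316243 mice. In AAKO it read 4.01 to 5.43 (median 4.19) fed, 4.74 to 5.31 (median 4.89) fasted and 5.96 to 6.30 (median 6.19) with CL316243. The AAKO CL316243 group lay above every other group, and the CTRL CL316243 group overlapped with 1 AAKO fed array, at 5.43. Relative to fed mice Stat3 rose 2.41-fold in CTRL (1.27 ± 0.19, adjusted p = 1.21e-05; 1.52 and, not called, 1.02 within the wash batches) and 3.25-fold in AAKO (1.70 ± 0.19, adjusted p = 4.95e-08; 2.05 and 1.30). Within the CL316243 mice the genotype difference was 1.54-fold (0.62 ± 0.19, adjusted p = 0.0166; 0.55 and, not called, 0.64), and the other 2 probes gave 0.74 and 0.75. The interaction of CL316243 with genotype was not called (0.43 ± 0.27), so the rise was not shown to differ between genotypes. Fasted levels lay below those with CL316243, with log2 fold changes of -1.13 in CTRL (adjusted p = 1.73e-05) and -1.25 in AAKO (adjusted p = 1.17e-06), a comparison within experiment 1. In AAKO both differences were called on the other probes too (1.42 and 1.12, then -1.64 and -1.29). In CTRL the second probe called both (0.90 and -1.08). The third called neither (0.52, adjusted p = 0.0741, and -0.18, adjusted p = 0.552). Its interaction of the fast against CL316243 was called (-1.11, adjusted p = 0.00459), where the main probe gave -0.12.

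The fasted genotype difference of Stat3 was less firm. It was 1.41-fold on the main probe (0.49 ± 0.19, adjusted p = 0.0313), with overlapping groups. It was not called within either wash batch (0.37 and 0.62) or without CTRL fasted replicate 2 (0.47, adjusted p = 0.0524), CTRL fasted replicate 4 (0.41), CTRL fasted replicate 6 (0.47), AAKO fasted replicate 1 (0.43) or AAKO fasted replicate 2 (0.47). The other Stat3 probes gave 0.18 ± 0.17 and -0.36 ± 0.21. The rise of Stat3 in AAKO after the fast (0.45, adjusted p = 0.0405) was not called without AAKO fed replicates 2, 3, 4 or 5 or AAKO fasted replicates 1, 2, 3 or 6 (0.37 to 0.45), and the other probes gave -0.22 and -0.16.

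Socs3, the feedback inhibitor that STAT3 induces and whose promoter is printed above, had the widest swing of the interleukin 6 arm. Its probe (chr11:117827480-117827539) read 0.79 to 3.14 (median 1.68) in CTRL fed, 0.98 to 2.15 (median 1.57) in CTRL fasted and 2.92 to 4.49 (median 3.85) in CTRL CL316243 mice. AAKO arrays ranged over 0.48 to 4.24 (median 1.52) fed, 2.11 to 3.42 (median 2.32) fasted and 4.13 to 6.47 (median 5.73) with CL316243. Both CL316243 groups stood above the fasted groups of their genotype, while single fed arrays reached into the CL316243 range. Against fed mice Socs3 rose 3.90-fold in CTRL (1.96 ± 0.49, adjusted p = 0.00384; 1.97 and, not called, 1.96 within the wash batches) and 10.3-fold in AAKO (3.37 ± 0.50, adjusted p = 3.71e-06; 4.39 and, not called, 2.14). AAKO mice given CL316243 had 3.21-fold more Socs3 than CTRL mice given it (1.68 ± 0.50, adjusted p = 0.0120; 1.72 and, not called, 1.43), with overlap from AAKO replicates 2 and 3 at 4.13 and 4.14 against CTRL up to 4.49. The interaction with genotype was 1.41 ± 0.70 (adjusted p = 0.225), so the larger rise in AAKO was not separated from that in CTRL. Fasting gave no called change of Socs3 in CTRL (-0.27 ± 0.49) or AAKO (0.38 ± 0.49), nor a called genotype difference (0.93 ± 0.49, adjusted p = 0.123). Fasted levels lay below those with CL316243, with log2 fold changes of -2.23 in CTRL (adjusted p = 0.000514) and -2.99 in AAKO (adjusted p = 4.44e-06).

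Among the fed mice, the arrays with high Socs3 also had high Stat3. AAKO fed replicates 1 and 6 had Socs3 at 3.80 and 4.24 and Stat3 at 4.94 and 5.43, and CTRL fed replicate 6 had 3.14 and 5.10. These were the 3 highest fed arrays for both genes, and all were in wash batch 2. The summed neutrophil marker signal of the same arrays was 4.05, 5.59 and 2.73, the highest 2 of the AAKO fed and the highest of the CTRL fed group, and the part of those cells in the Socs3 and Stat3 values was not tested. Over all 36 arrays the gene with the level pattern most like that of Socs3 was Stat3 (Pearson r = 0.928), followed by Slc37a1 (0.921) and Wdr45b (0.917). After removal of the group means the r values were 0.767, 0.816 and 0.780. The 36 points share 6 groups, so these correlations are descriptions.

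Il1b, the cytokine of the interleukin 1 arm, differed between genotypes with opposite signs after the fast and with CL316243. Its main probe (chr2:129190347-129190406) read -1.81 to -0.26 (median -1.02) in CTRL fed, -1.96 to -0.43 (median -0.72) in CTRL fasted and -2.90 to -1.56 (median -2.45) in CTRL CL316243 mice. In AAKO it read -0.44 to 0.30 (median 0.07) fed, -2.54 to -0.94 (median -2.05) fasted and -0.54 to 0.43 (median -0.20) with CL316243. With CL316243 the genotypes did not overlap, and the AAKO CL316243 and AAKO fed groups overlapped. Il1b was 4.68-fold higher in AAKO than in CTRL with CL316243 (2.23 ± 0.30, adjusted p = 1.48e-06; 2.67 and, not called, 1.73 within the wash batches). It was 2.12-fold lower in AAKO after the fast (-1.08 ± 0.30, adjusted p = 0.00301; -1.28 and, not called, -0.89), or -1.31 without CTRL fasted replicate 2. The difference between these genotype effects was -3.31 ± 0.42 (adjusted p = 5.64e-07), a contrast within experiment 1.

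The groups in which Il1b fell also differed. Against fed mice it fell with CL316243 in CTRL (2.54-fold, -1.34 ± 0.30, adjusted p = 0.00121; -1.52 and, not called, -1.17 within the wash batches), where the AAKO difference was -0.18 ± 0.30 and not called. It fell with the fast in AAKO (3.98-fold, -1.99 ± 0.30, adjusted p = 6.62e-07; -2.11 and -1.87), where the CTRL difference was 0.15 ± 0.30 and not called. The interaction was called for the fast (-2.14 ± 0.42, adjusted p = 0.000170; not called within wash batch 2, -1.55). For CL316243 it was 1.16 ± 0.42 (adjusted p = 0.0732), and it was called without CTRL fed replicate 2 (1.31), CTRL fed replicate 5 (1.34), CTRL fasted replicate 2 (1.18) or CTRL CL316243 replicate 3 (1.32). Some markers of Kupffer cells and macrophages, cells known to make interleukin 1 beta, were also called lower than in fed mice in these groups. They were 5 of 8 in CTRL CL316243 mice (23.1% of all genes called, 12.7% lower). In AAKO fasted mice they were 5 of 8, near the 63.6% of all genes called (36.1% lower). In AAKO CL316243 mice, where Il1b was not called, they were 7 of 8 (31.4% of all genes called, 15.9% lower). The part of these cells in the Il1b values was not tested. In fed mice Il1b was higher in AAKO by 1.06 ± 0.30 with overlapping groups, at an unadjusted p of 0.00116 and an adjusted p of 0.284 in limma. The other probes of Il1b gave 2.62 and 1.37 for the CL316243 genotype difference, and -0.58 (adjusted p = 0.171) and -0.81 (adjusted p = 0.180) for the fasted one. Both were well above background on 1 of 6 CTRL CL316243 arrays.

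Il1rn, which encodes the soluble antagonist of the interleukin 1 receptor, rose from fed levels with the fast and with CL316243 in CTRL livers, and both differences were smaller or of the other sign in AAKO livers. Its main probe (chr2:24206125-24206184) read -6.87 to -3.55 (median -4.60) in CTRL fed, -2.42 to -1.32 (median -1.95) in CTRL fasted and -1.78 to -0.70 (median -1.10) in CTRL CL316243 mice. In AAKO it read -5.50 to -2.15 (median -3.94) fed, -6.37 to -3.78 (median -4.39) fasted and -3.58 to -2.16 (median -2.79) with CL316243. The probe was dim, and 1 array each of CTRL fed, AAKO fed and AAKO fasted was not well above background. The genotypes did not overlap after the fast or with CL316243, and they overlapped when fed. Relative to fed mice Il1rn rose 7.30-fold with the fast (2.87 ± 0.43, adjusted p = 2.16e-06; 3.61 and 2.13 within the wash batches) and 12.3-fold with CL316243 (3.62 ± 0.43, adjusted p = 3.87e-07; 4.27 and 2.98) in CTRL. The second probe, well above background on all CTRL arrays, gave smaller rises of 1.08 ± 0.25 (adjusted p = 0.000539) and 0.88 ± 0.25 (adjusted p = 0.00882), so the size of the rise depended on the probe. It also depended on the processing of the main probe. Over 47 refits with other processing, samples or models, the rises were 0.80 to 3.61 and 1.26 to 4.27, and all 47 called both.

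In AAKO the corresponding Il1rn differences were -0.76 ± 0.43 (adjusted p = 0.128) and 1.04 ± 0.44 (adjusted p = 0.0672). The first was called without AAKO fed replicate 5 (-1.05), and the second without CTRL fed replicate 2 (1.02), AAKO fed replicate 6 (1.33) or AAKO CL316243 replicate 3 (1.27). AAKO livers had 6.43-fold less Il1rn than CTRL after the fast (-2.69 ± 0.43, adjusted p = 4.99e-06; -3.34 and -2.03 within the wash batches) and 3.12-fold less with CL316243 (-1.64 ± 0.44, adjusted p = 0.00538; -1.68, not called, and -1.85). The interactions were -3.63 ± 0.61 for the fast (adjusted p = 2.65e-05) and -2.58 ± 0.61 for CL316243 (adjusted p = 0.00491). The second probe of Il1rn gave smaller values of the same sign, -1.41 (adjusted p = 1.49e-05) and -0.68 (adjusted p = 0.0405) for the genotype differences, and its interaction for CL316243 was not called (-0.58, adjusted p = 0.343). Over the 47 refits of the main probe the genotype differences were -3.34 to -0.90 and -1.85 to -0.80. The interactions were -4.24 to -1.07 and -2.89 to -0.97.

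Il1r1, the signalling receptor for interleukin 1, was about 5 times higher in AAKO than in CTRL livers after the fast and with CL316243. Its probe (chr1:40372667-40372726) read 2.18 to 4.03 (median 2.98) in CTRL fed, 2.44 to 5.01 (median 2.96) in CTRL fasted and 1.76 to 3.40 (median 2.81) in CTRL CL316243 mice. The AAKO ranges were 1.93 to 4.27 (median 2.94) fed, 5.51 to 6.11 (median 5.64) fasted and 4.39 to 5.78 (median 5.17) with CL316243. Fasted and CL316243 AAKO arrays lay above all CTRL arrays of the same condition, and the 4 remaining groups overlapped one another. The genotype difference was 5.06-fold after the fast (2.34 ± 0.37, adjusted p = 4.23e-06; 3.07 and 1.61 within the wash batches, 2.64 without CTRL fasted replicate 2). With CL316243 it was 5.54-fold (2.47 ± 0.38, adjusted p = 9.34e-06; 2.20 and 2.57). Relative to fed mice Il1r1 rose in AAKO by 2.83 with the fast (adjusted p = 6.93e-08) and by 2.29 with CL316243 (adjusted p = 1.78e-05; not called within wash batch 2, 1.5). The corresponding CTRL differences were 0.38 ± 0.37 and -0.29 ± 0.37, and the interactions were 2.45 ± 0.53 (adjusted p = 0.000489) and 2.58 ± 0.53 (adjusted p = 0.00122). Neither interaction was called within wash batch 2 (1.12 and 2.08). Over the 36 arrays the genes most like Il1r1 were Ccr8 (r = 0.930), a transcript listed without a gene symbol (0.928) and Ttll4 (0.922). For Il1b the most similar genes were Ggt6 (0.810), Lbx2 (0.747) and Hid1 (0.719), and its r with Ggt6 was 0.358 after removal of the group means.

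**Figure D3:**
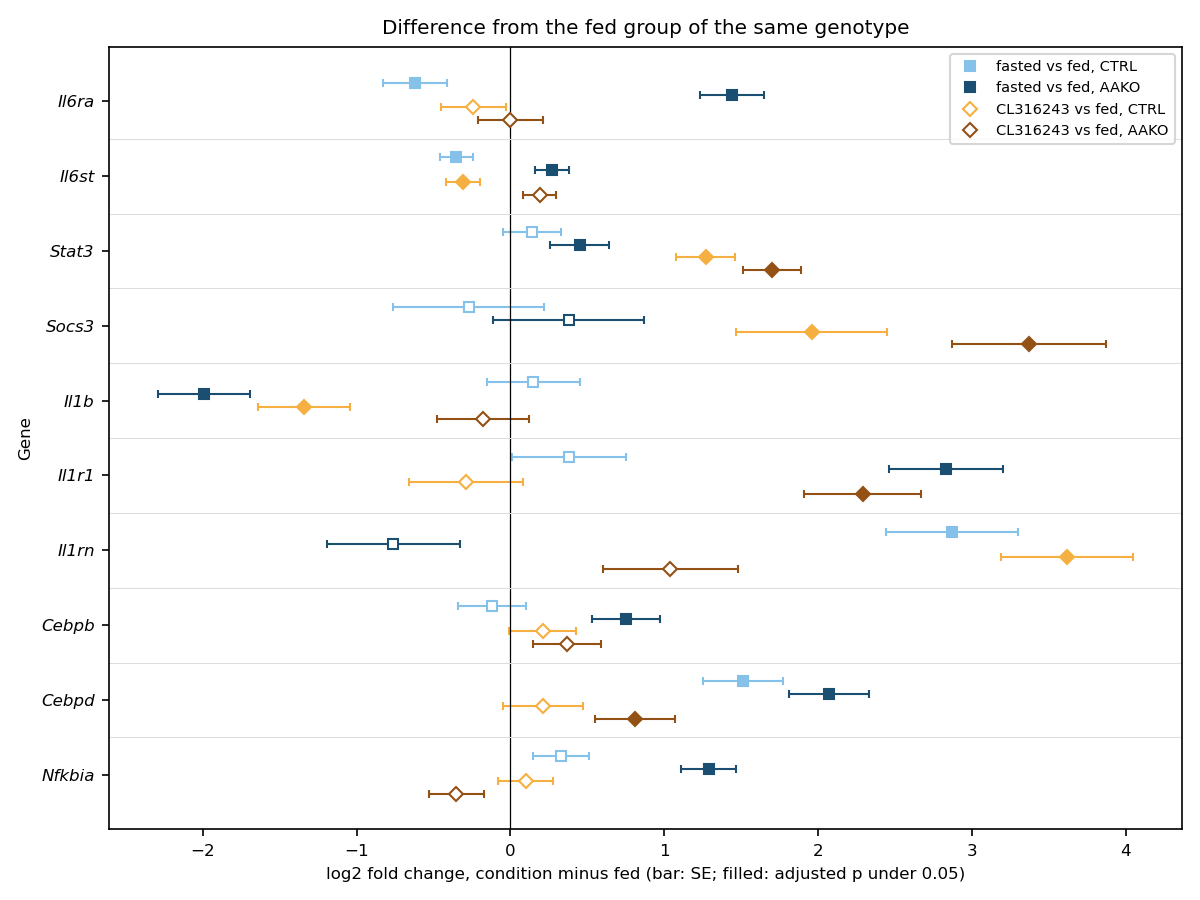
Log2 fold change from the fed group of the same genotype (x axis, with SE bars) for each gene (y axis), with fasting as squares and CL316243 as diamonds, CTRL in the lighter and AAKO in the darker colour, filled where the adjusted p was under 0.05. Il1rn rose in CTRL by 2.87 and 3.62, Il1r1 rose in AAKO by 2.83 and 2.29, and Socs3 rose with CL316243 by 1.96 and 3.37.

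Cebpb and Cebpd encode the transcription factors C/EBP beta and C/EBP delta, which bind acute phase promoters. Cebpb (chr2:167515828-167515887) read 5.32 to 6.08 (median 5.86) in CTRL fed, 4.67 to 6.50 (median 5.65) in CTRL fasted and 5.40 to 6.45 (median 6.15) in CTRL CL316243 mice. AAKO arrays gave 5.57 to 6.67 (median 5.99) fed, 6.65 to 6.93 (median 6.73) fasted and 5.91 to 6.82 (median 6.34) with CL316243. The AAKO fasted arrays were tightly grouped above all CTRL fasted arrays, and the other groups overlapped. The fasted genotype difference of Cebpb was 2.09-fold (1.06 ± 0.22, adjusted p = 0.000172; 1.40 and, not called, 0.73 within the wash batches), or 1.21 without CTRL fasted replicate 2. With CL316243 it was 0.35 ± 0.22 and not called. The rise with the fast in AAKO was 0.75 (adjusted p = 0.00391) against -0.12 ± 0.22 in CTRL. That interaction (0.87 ± 0.31, adjusted p = 0.0313) was not called without CTRL fed replicates 2 or 3, AAKO fed replicates 3 or 4 or CTRL fasted replicates 3, 4 or 6 (0.69 to 0.83). Nor was it called within wash batch 2 (0.19). The interaction of the fast against CL316243 was not called (0.71, adjusted p = 0.0850), and it was called without CTRL fasted replicate 1 (0.83) or 2 (0.86).

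Cebpd (chr16:15888459-15888518) rose with the fast in both genotypes. It read 2.38 to 3.26 (median 2.92) in CTRL fed, 3.77 to 5.18 (median 4.33) in CTRL fasted and 2.34 to 3.72 (median 3.12) in CTRL CL316243 mice. In AAKO it read 2.40 to 4.12 (median 3.11) fed, 4.92 to 5.49 (median 5.14) fasted and 3.37 to 4.22 (median 3.97) with CL316243. Fasted arrays lay above fed and CL316243 arrays of the same genotype without overlap. The rise over fed mice was 2.86-fold in CTRL (1.51 ± 0.26, adjusted p = 1.39e-05; 1.01 and 2.01 within the wash batches) and 4.19-fold in AAKO (2.07 ± 0.26, adjusted p = 2.49e-08; 2.36 and 1.77), and the interaction was 0.55 ± 0.37 and not called. Within experiment 1, fasted mice exceeded CL316243 mice by 1.30 in CTRL (adjusted p = 0.000142) and 1.26 in AAKO (adjusted p = 9.76e-05). The genotype difference of Cebpd was 1.72-fold after the fast (0.79 ± 0.26, adjusted p = 0.0119; 1.1 and, not called, 0.47). With CL316243 it was 1.78-fold (0.83 ± 0.26, adjusted p = 0.0177; called in neither wash batch, 0.88 and 0.66), and it was not called without CTRL CL316243 replicate 3 (0.71) or 4 (0.69). The rise with CL316243 in AAKO (0.81, adjusted p = 0.0166) was not called without AAKO fed replicate 3 or 4 (0.68). The genes most like Cebpd over the arrays were Tbx2 (r = 0.931), Mbd1 (0.917) and Doxl1 (0.913). Among the members, Il1r1 correlated with Cebpd (r = 0.797, or 0.777 within groups) and with Cebpb (0.781, or 0.759).

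Nfkbia, the NF-kB inhibitor gene with a matching motif next to its transcript start, was raised in AAKO fasted livers. Its probe (chr12:56590945-56591440) read 3.99 to 4.84 (median 4.26) in CTRL fed, 4.36 to 5.55 (median 4.51) in CTRL fasted and 4.24 to 4.71 (median 4.43) in CTRL CL316243 mice. Among AAKO mice the range was 3.92 to 4.81 (median 4.38) fed, 5.52 to 5.95 (median 5.67) fasted and 3.64 to 4.47 (median 4.05) with CL316243. The AAKO fasted arrays lay above every other array except CTRL fasted replicate 2 at 5.55. The fasted genotype difference was 1.98-fold (0.98 ± 0.18, adjusted p = 3.94e-05; 1.06 and 0.91 within the wash batches), or 1.17 without that replicate. In AAKO the fasted level exceeded the fed level 2.44-fold (1.29, adjusted p = 2.78e-07) and the CL316243 level 3.12-fold (1.64, adjusted p = 3.65e-09), whereas the CTRL differences were 0.33 ± 0.18 and 0.22 ± 0.18 and not called. With CL316243 the genotype difference had the other sign (-0.43 ± 0.18, adjusted p = 0.0840), and it was called without CTRL fasted replicate 2 (-0.44) or AAKO CL316243 replicate 3 (-0.54). The interactions were 0.96 ± 0.26 against fed mice (adjusted p = 0.00424) and 1.42 ± 0.26 against CL316243 (adjusted p = 8.35e-05). Neither was called within wash batch 2 (0.88 and 1.14).

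Against fed CTRL mice, 4 members were called in CTRL fasted mice (43.8% of all genes), 2 higher and 2 lower (19.8% and 24% of all genes), and the groups did not overlap for 2 (22.8%). Against fed AAKO mice, 8 were called in AAKO fasted mice (63.6% of all genes), 7 higher and 1 lower (27.5% and 36.1%), and 5 did not overlap (42.7%). For CL316243 against fed mice the CTRL count was 5 (23.1%), 3 higher and 2 lower (10.5% and 12.7%), with 2 not overlapping (12.3%). The AAKO count was 4 (31.4%), 4 higher and 0 lower (15.5% and 15.9%), with 2 not overlapping (15%). Fasted against CL316243 mice gave 4 in CTRL (37.1%), 2 higher and 2 lower (17.8% and 19.3%), with 3 not overlapping (17.9%). The same comparison gave 7 in AAKO (60%), 3 higher and 4 lower (26% and 34%), with 7 not overlapping (37.3%). The 7 called in AAKO were Il6ra, Cebpd and Nfkbia, higher when fasted, and Stat3, Socs3, Il1b and Il1rn, higher with CL316243. The genotype difference itself changed for 7 members between fed and fasted mice (33.6% of all genes), upwards for 5 and downwards for 2 (15.1% and 18.6%). It changed for 3 between fed and CL316243 mice (10.8%), 2 and 1 by direction (6.2% and 4.64%), and for 3 between CL316243 and fasted mice (31.8%), 2 and 1 by direction (13.4% and 18.5%). Other scalings moved some of these splits: CTRL fasted against fed became 3 higher and 1 lower after quantile normalization and 3 and 0 in the authors' value table, CTRL CL316243 against fed 3 and 1 in that table, CTRL fasted against CL316243 2 and 3 in that table and after normexp correction, and the change between fed and CL316243 mice from 2 and 1 to 1 and 1 in that table and after quantile normalization. In the authors' value table the arrays of a group share the same median, and the medians differ between groups. Over all genes that table turned the split of higher and lower calls in most comparisons. The genotype difference after the fast went from 5325 higher and 6597 lower to 6086 and 5949. Its change from fed mice went from 3651 and 4509 to 4160 and 4123, and AAKO fasted against fed from 6676 and 8748 to 7728 and 7203. AAKO fasted against CL316243 went from 6295 higher and 8256 lower to 8207 and 5918, CTRL fasted against CL316243 from 4317 and 4672 to 5467 and 3668, and CTRL fasted against fed from 4793 and 5828 to 5789 and 4516. The CL316243 genotype difference went from 3139 and 2813 to 2513 and 3432, its change from fed mice from 1503 and 1125 to 1199 and 1518, and the change between CL316243 and fasted mice from 3241 and 4477 to 4147 and 3403. Normexp correction gave 5477 and 11254 for AAKO fasted against CL316243. These comparisons share groups, so their counts are not independent of one another.

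**Figure D4:**
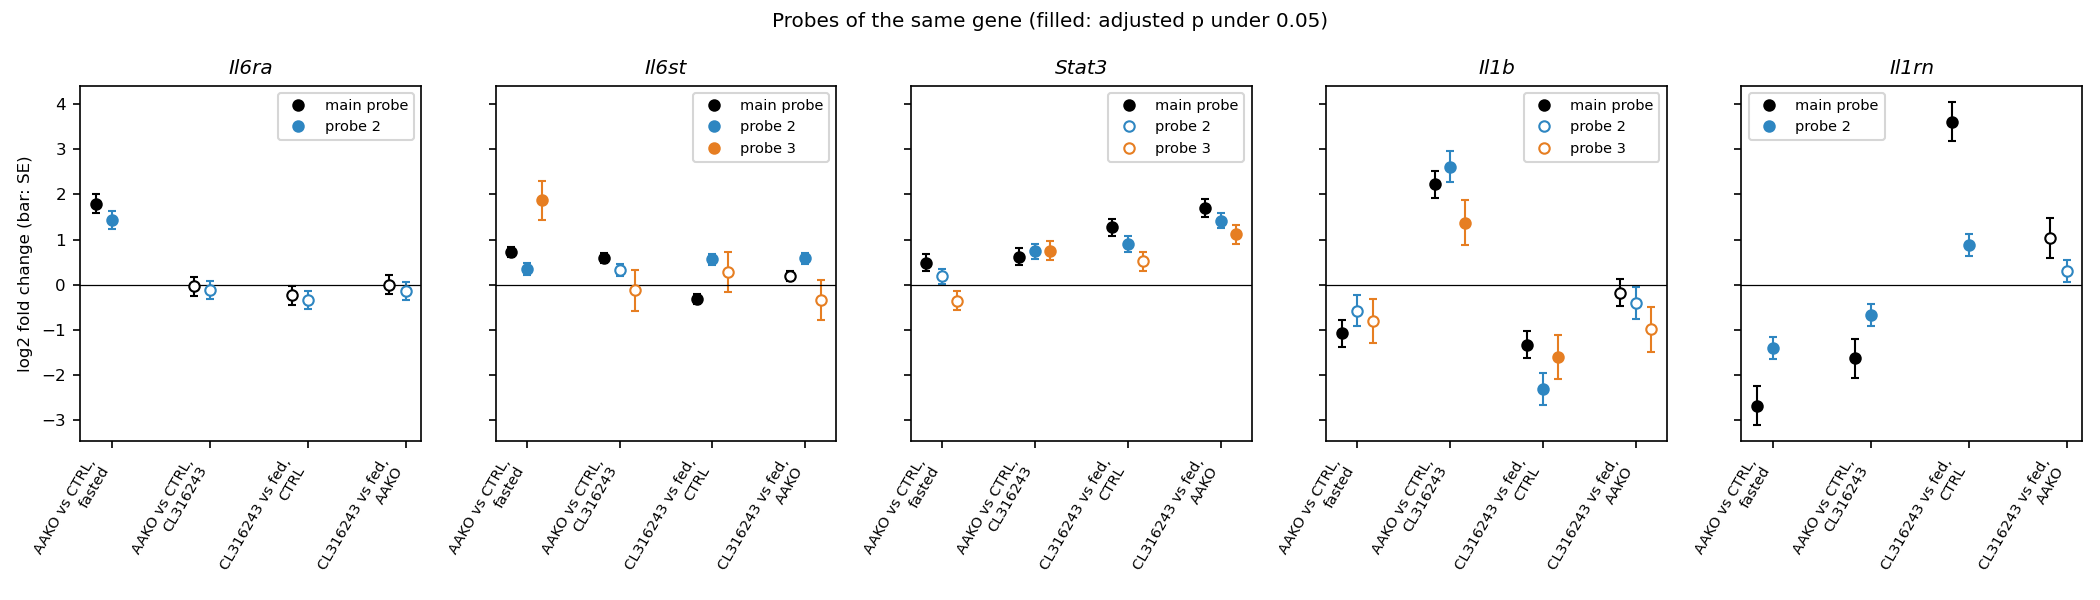
Log2 fold change (y axis, with SE bars) by probe for the 5 genes with over 1 probe, in 4 comparisons (x axes), black for the main probe and coloured for the others, filled where the adjusted p was under 0.05. Probes of Il6ra, Il1b and Il1rn share the sign of the genotype differences that the main probe called, those of Il6st part for CL316243 against fed in CTRL (-0.31 and 0.56), and those of Stat3 part for the fasted genotype difference (0.49 and -0.36); the third Il6st probe was near background outside AAKO fasted arrays.

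Markers of other cells were called in some of these comparisons, and their counts stand against the shares of all genes called. Between genotypes these shares were 49.2% after the fast (22% higher and 27.2% lower) and 24.5% with CL316243 (12.9% and 11.6%). Against fed mice they were 43.8% in CTRL fasted (24% lower) and 63.6% in AAKO fasted mice (36.1% lower). With CL316243 they were 23.1% in CTRL (12.7% lower) and 31.4% in AAKO (15.9% lower). Arrays of whole liver cannot tell fewer cells of a type from less RNA per cell. Of 8 neutrophil markers, 5 (S100a8, S100a9, Retnlg, Ngp and Cxcr2) were called higher in AAKO than in CTRL fasted livers and 0 in fed or CL316243 livers. Ltf (2.16), Camp (0.70) and Ly6g (-0.26) were not called after the fast. Cxcr2 gave 1.67 after the fast and 1.73, not called, with CL316243. In the 3 interactions 0 of the 8 were called, so their genotype difference was not shown to change between conditions. The summed signal of the 8 was 3.25 to 6.98 in AAKO fasted against 0.59 to 6.33 in CTRL fasted mice. It was 0.78 to 2.73 in CTRL fed, 0.83 to 5.59 in AAKO fed, 0.24 to 2.62 in CTRL CL316243 and 1.80 to 3.53 in AAKO CL316243 mice. Ngp was well above background on 0 CTRL fed arrays and 0 arrays of either CL316243 group. Over the 36 arrays this summed signal correlated with Il1r1 (r = 0.723, or 0.607 within groups), Cebpd (0.714, or 0.526), Cebpb (0.689, or 0.548), Il6st (0.617, or 0.548), Il6ra (0.626, or 0.383), Nfkbia (0.547, or 0.132), Stat3 (0.236, or 0.666), Socs3 (0.232, or 0.654) Il1rn (-0.065, or 0.548) and Il1b (-0.154, or -0.138). The part of neutrophils in the fasted genotype differences of these genes was not tested. Sums of other marker lists followed some members too. Il6st had r = 0.608, or 0.722 within groups, with the endothelial sum, Il1rn -0.153, or 0.561, with the Kupffer cell sum, and Nfkbia 0.648, or -0.201, with the stellate sum. For Il6ra, Stat3, Socs3, Il1r1, Cebpb and Cebpd the neutrophil sum had the highest r within groups. Kupffer cell and macrophage markers, 8 in number, were not called between genotypes in any condition, but several were called lower than in fed mice in all 4 comparisons with them. Of the 8, 3 fell and 0 rose in CTRL fasted, 5 and 0 in AAKO fasted, 5 and 0 in CTRL CL316243, and 7 and 0 in AAKO CL316243 mice. The shares called after the fast were near those of all genes called, and those with CL316243 were above them. Their summed signal was 5.82 to 7.01 in CTRL fed and 6.51 to 7.33 in AAKO fed mice. It was 5.29 to 6.96 in CTRL fasted, 4.61 to 6.87 in AAKO fasted, 4.68 to 6.35 in CTRL CL316243 and 5.72 to 6.33 in AAKO CL316243 mice. In AAKO the CL316243 arrays thus lay below all fed arrays, and the other groups overlapped their fed group. Endothelial markers, 6 in number, were called higher in AAKO for 2 after the fast (Stab2 and Lyve1) and 2 with CL316243 (Clec4g and Lyve1), and of 6 stellate markers 2 (Dcn and Reln) were higher after the fast and 0 with CL316243. Against fed mice, CL316243 was accompanied by falls of 5 endothelial markers in CTRL and 3 in AAKO, and of 5 stellate markers in each genotype, with 0 rising. The fast gave 1 endothelial marker higher and 2 lower in CTRL and 2 and 2 in AAKO, and 1 stellate marker higher and 1 lower in CTRL and 3 and 1 in AAKO. Of 6 lymphocyte markers 1 (Cd3e) was lower after the fast, and of 4 cholangiocyte markers 2 (Krt19 and Sox9) were lower after the fast and 1 (Sox9) with CL316243. After the fast, the counts of endothelial, stellate, lymphocyte and cholangiocyte markers were near or below the shares of all genes called. The part of these cells in the member differences was not tested. The hepatocyte markers were bright in all groups, with a summed signal of 12.26 to 12.59, and single markers moved. Of 7, Cps1 and Tat were called higher and Alb, Apoa1, Apoc3 and Ttr lower in AAKO after the fast, and Cps1 and Tat were higher with CL316243.

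Around the 10 genes, 7 lists of 92 other pathway genes were read, of which 89 were tested. Il6 itself, Osm and Il1rl1 were too dim to be kept. No listed gene was called between genotypes in fed mice. After the fast 45 of the 89 were called, a share near the 49.2% of all genes, with 31 higher and 14 lower in AAKO (22% and 27.2% of all genes). With CL316243 37 of the 89 were called (24.5% of all genes), with 30 higher and 7 lower (12.9% and 11.6%). The counts of single lists that follow stand against the same shares of all genes.

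Several receptors of the interleukin 6 family were higher in AAKO. Of 9 tested family genes, 4 were higher and 1 lower in AAKO after the fast (median 0.16) and 3 higher and 1 lower with CL316243 (median 0.14), of which the fasted count is near the 49.2% of all genes called. Osmr, the oncostatin M receptor, averaged -0.41 ± 0.26 in CTRL and 1.14 ± 0.39 in AAKO CL316243 mice (SD, n = 6), a 3.01-fold difference (1.59 ± 0.25, adjusted p = 1.86e-05), and its interaction with CL316243 was called (1.29, adjusted p = 0.0165). Lifr, the receptor for leukaemia inhibitory factor, was higher in AAKO fasted livers (0.97 ± 0.15, adjusted p = 3.05e-06), as was the ciliary neurotrophic factor receptor Cntfr (0.81 ± 0.12). The cytokine gene Ctf1 was lower (-1.27 ± 0.10, adjusted p = 9.04e-12). Among 15 JAK-STAT relay and feedback genes, 6 were higher and 4 lower in AAKO after the fast (median 0.15; 49.2% of all genes called), and 5 were higher and 1 lower with CL316243 (median 0.07; 24.5%). Socs2, a feedback gene best known for growth hormone signalling, was 4.75-fold higher in AAKO fasted livers (2.25 ± 0.54, adjusted p = 0.000900). Stat2, which carries interferon signals, was lower there (-1.02). Socs1 with CL316243 ranged from -2.05 to 2.68 in AAKO against -2.42 to -0.11 in CTRL mice (1.62 ± 0.59, adjusted p = 0.0430).

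In the interleukin 1 family, 3 of 11 tested genes were higher and 2 lower in AAKO after the fast (median 0.08; 49.2% of all genes called), and 3 were higher and 1 lower with CL316243 (median 0.10). Il33, which encodes an alarmin, read -2.32 to -1.85 in CTRL and -0.31 to 1.27 in AAKO CL316243 mice without overlap, a 7.51-fold difference (2.91 ± 0.20, adjusted p = 1.59e-11). It was not called between genotypes after the fast, and in AAKO the fasted level was below the CL316243 level by a log2 fold change of -3.38. Il1r2, the decoy receptor that binds interleukin 1 without signalling, was higher in AAKO than CTRL after the fast (8.15-fold, 3.03 ± 0.53, adjusted p = 1.58e-05) and with CL316243 (5.12-fold, adjusted p = 0.00120). Its CTRL CL316243 arrays were well above background on 4 of 6. Of the 13 relay genes between receptor and NF-kB, 5 were higher and 3 lower after the fast (median 0.18; 49.2% of all genes called) and 5 and 1 with CL316243 (median 0.12; 24.5%). The receptor kinase gene Irak4 was lower after the fast (-1.15 ± 0.11, adjusted p = 5.20e-10), and Irak3, an inhibitory member of that kinase family, was higher with CL316243 (1.64 ± 0.41, adjusted p = 0.00300).

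NF-kB genes other than Nfkbia were mostly higher in AAKO fasted livers. Of 11 tested, 8 were higher and 1 lower (median 0.85, against -0.03 for all genes, of which 22% were higher and 27.2% lower). With CL316243 3 were higher and 1 lower (median 0.26; 12.9% and 11.6% of all genes). After rescaling by the array median or in the authors' value table the fasted count was 9 higher and 0 lower. The subunit genes Rela (1.06 ± 0.10, adjusted p = 2.61e-10) and Rel (1.07 ± 0.14, adjusted p = 8.73e-08) were higher in AAKO by 2.08 and 2.10 times. Bcl3, which encodes a nuclear cofactor of NF-kB, was higher in AAKO with CL316243 (1.54 ± 0.24, adjusted p = 1.17e-05). Of 5 further C/EBP family genes, Cebpa was the 1 called after the fast (0.87 ± 0.13), and with CL316243 Ddit3 and Cebpz were higher and Cebpa and Cebpe lower.

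Acute phase genes, the hepatocyte targets of STAT3 and C/EBP, were mostly called higher with CL316243 than in fed mice in AAKO, and few were in CTRL. Of 25 tested, 18 rose and 0 fell in AAKO CL316243 against fed mice (median 0.98), where 15.5% of all genes rose and 15.9% fell. In CTRL 4 rose and 0 fell (median 0.52), where 10.5% of all genes rose and 12.7% fell. The share of the 25 that was called was below the 23.1% of all genes, and the share that rose was above their 10.5%. The difference between those responses was called for 6 of the 25 genes, each with the larger rise in AAKO (10.8% of all genes, 6.2% higher and 4.64% lower). For the rest of the 25 the response was not shown to differ between genotypes. Between genotypes with CL316243, 9 were higher in AAKO and 0 lower (median 0.71), among them the fibrinogen genes Fga, Fgb and Fgg, Hamp, Serpina3n and Saa4. After the fast 4 were higher and 3 lower (median -0.01). Saa1, a serum amyloid A gene whose near-identical neighbour Saa2 can share probe signal, read 10.39 to 10.69 in AAKO CL316243 mice and 5.25 to 10.64 in AAKO fed mice (2.88 ± 1.01, adjusted p = 0.0279). Lcn2, which encodes the iron-trapping protein lipocalin 2, read 5.85 to 7.67 and 0.12 to 8.36 in these groups (3.46 ± 1.30, adjusted p = 0.0415). Single fed arrays thus reached the CL316243 range of both genes. Saa4, which is made constitutively, fell with the fast in AAKO to 1.47 to 2.95 from 5.08 to 6.85 (-3.33 ± 0.25, adjusted p = 7.19e-13), with no overlap.

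**Figure D5:**
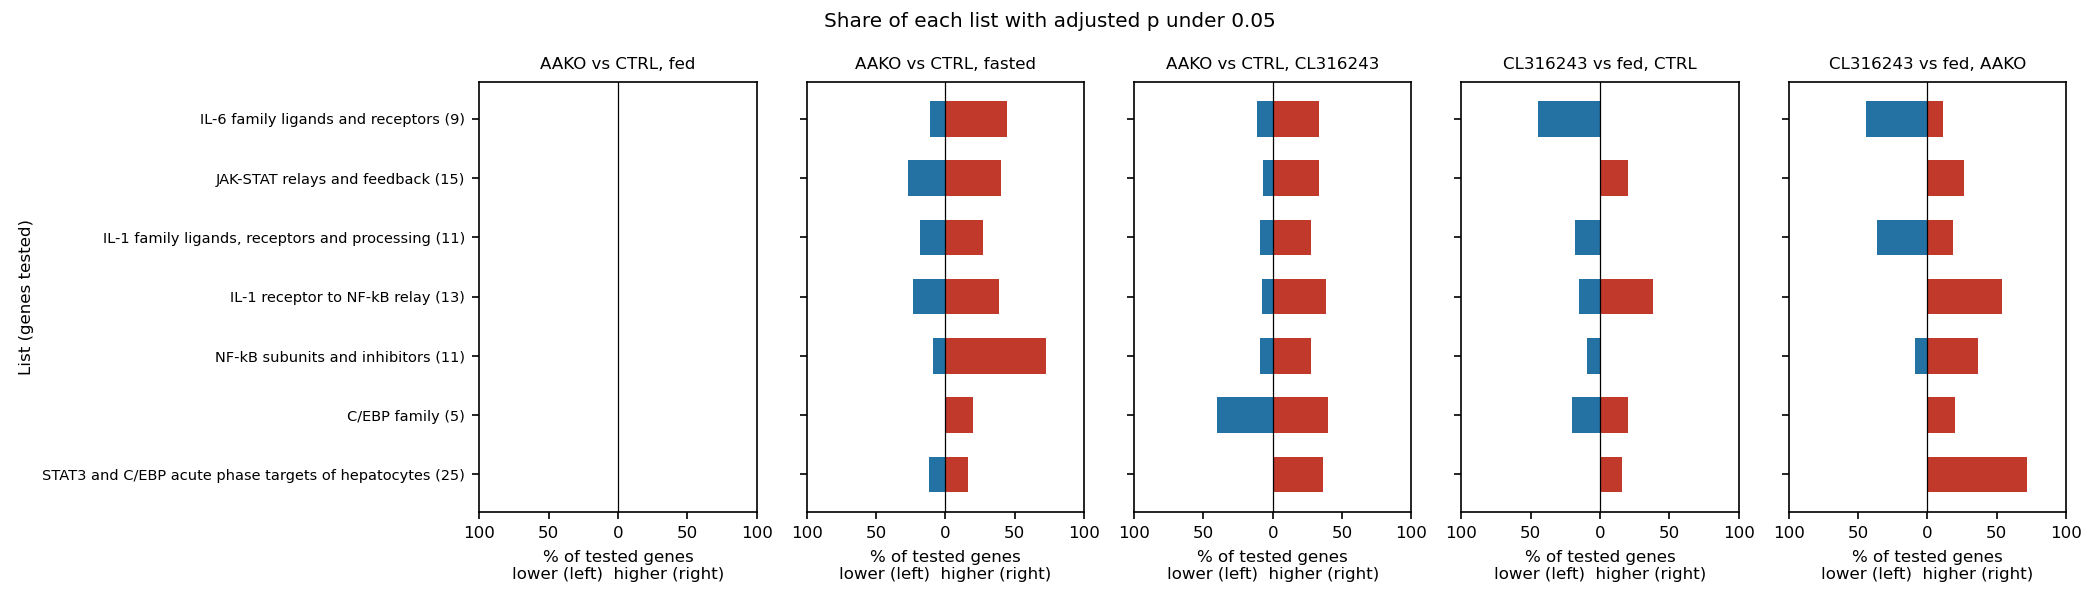
Share of the tested genes of each list (y axis, number tested in brackets) called higher (red, to the right) or lower (blue, to the left) at an adjusted p under 0.05, in percent (x axes), in 5 comparisons. The fed panel is empty, 8 of 11 NF-kB genes are higher in AAKO after the fast, and 18 of 25 acute phase genes rose with CL316243 in AAKO.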

How the data were processed

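RNA of 36 livers was read on 1-colour arrays of design 074809, and the scanner software was Feature Extraction (Agilent, version 10.10.1.1). The file headers show that the deposited processed intensity has a fitted background subtracted and a trend within the array removed, with no scaling between arrays, and the mean and local background intensity and 0 or 1 marks for saturation, outliers and signal well above background are deposited too. The authors' value table holds log2 values of 36898 probes, of direction like the scanner signal (r between 0.98635 and 0.98969 with the same array), without visible centring of genes. By group the medians of its columns were, for CTRL and then AAKO, 6.91 and 6.93 in fed mice, 6.97 and 7.01 after the fast, and 6.91 and 6.88 with CL316243. Its normalization and probe filter stay unknown.

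Main values were log2 processed intensity, averaged over the spots of a probe without those marked as outliers (0.127% of spots), minus the 75th percentile of the array. The arrays had 33128 to 37200 probes well above background, and 0 spots were saturated. The RefSeq accession named 32994 of 56605 probes through a GRCm38.p6 table used for names. Each gene was represented by its brightest probe. Genes well above background on at least 5 of 6 arrays of a group were tested with limma (version 3.58.1, run in R 4.3.3; data.table was version 1.17.8), with 6 group means and the wash batch (2 batches, each holding all groups) in 1 fit, eBayes and Benjamini-Hochberg adjustment over all genes. Tests were two-sided. Errors are SE for differences and SD for means. The scripts were tested on simulated data. Figures used matplotlib 3.10.9.

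The members, lists and tests were chosen with earlier results of these data known. Named were all members, up to 4 called genes per list with the largest changes between genotypes or between fasting and CL316243, and the 3 genes most like Socs3, Cebpd, Il1b and Il1r1. Acute phase and C/EBP genes outside that rule were named as members of their counts, after their values were seen. Neutrophil and Kupffer cell, hepatocyte, endothelial, stellate, lymphocyte and cholangiocyte markers were read as lists. Replicate numbers did not pair arrays: same-numbered arrays of different groups had deviations correlating between -0.202 and 0.260, and other pairs between -0.307 and 0.320. Alternatives were normexp correction, quantile and median scaling, the value table, no filter, no wash batch term, each wash batch alone, the slide (8 slides) as a random block, a replicate block, only the groups compared, other probes, and each array left out.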

Additional observations from a re-analysis of the deposited data

Results flagged for a closer look

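Among the 60 groups of 6 arrays formed by the 10 genes and 6 groups, the lowest array lay far from the others in 2, where chance gives about 1 in 20 groups. Il1b in CTRL fasted replicate 2 was -1.96, with the nearest array at -0.80, a gap of 0.760 of the range of the group. Il1rn in AAKO fasted replicate 6 was -6.37, with the nearest at -4.51 (0.716 of the range), on an array where that probe was not well above background.

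The genotype difference itself differed between conditions for 7 genes, by limma's test of the interaction at an adjusted p under 0.05. From fed to fasted mice it changed by 2.07 for Il6ra, 0.62 for Il6st, 2.45 for Il1r1, 0.87 for Cebpb and 0.96 for Nfkbia, and by -2.14 for Il1b and -3.63 for Il1rn. From fed to CL316243 mice it changed by 0.49 for Il6st, 2.58 for Il1r1 and -2.58 for Il1rn. Between CL316243 and fasted mice, within experiment 1, it changed by 1.83 for Il6ra, 1.42 for Nfkbia and -3.31 for Il1b.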

How the results depend on the processing

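All 61 called member differences kept their sign within each wash batch alone, and all 61 kept their call under normexp correction, median scaling, the slide as a random block and the replicate block. With the replicate block the members called numbered 0, 9, 7, 4, 8, 5, 4, 4, 7, 7, 3 and 3 over the 12 comparisons, as without it, and no called member difference changed. Calls were lost for 4 in the authors' value table, 2 after quantile normalization, 3 without the filter, 2 without the wash term and 4 with only the groups compared. These were among the smaller differences of Il6ra and Il6st from fed mice in CTRL, Stat3 and Cebpd from fed mice in AAKO, Cebpd between genotypes with CL316243, and the Il6st interaction for CL316243. The value table moved the median of all genes by 0.11 (AAKO fasted against fed) and 0.13 (AAKO fasted against CL316243), and the other scalings moved no median by more than 0.10. No called member difference changed sign under any scaling.

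Within wash batch 2, which has 2 or 3 arrays per group, fewer members were called: 5 for the genotype after the fast, 2 with CL316243, 2 and 5 for fasted against fed in CTRL and AAKO, 1 and 1 for CL316243 against fed, and 2, 0 and 1 for the interactions. Over all genes, wash batch 1 alone gave 1 and 2977 calls for the fed and CL316243 genotype differences, 5997 for CTRL fasted against fed, 2100 and 4684 for CL316243 against fed in CTRL and AAKO, 4551 for CTRL fasted against CL316243, and 5101, 458 and 4744 for the interactions. Wash batch 2 alone gave 0, 7821 and 1510 for the genotypes, 1623 and 2287 for CL316243 against fed, and 3132, 480 and 3053 for the interactions. The fed genotype count was 3 with only those groups and 7 to 33 with 1 array left out. With 1 array left out, called member differences lost the call in 39 refits and kept it in 2157.

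Other probes turned the sign of Stat3 (genotype after the fast -0.36, AAKO fasted against fed -0.22 and -0.16) and of Il6st (genotype with CL316243 -0.13, fasted against fed 0.24 in CTRL and -0.088 in AAKO, CL316243 against fed in CTRL 0.56 and 0.28, AAKO fasted against CL316243 -0.67, CL316243 interaction -0.62). The causes were not tested. Precision is limited by 6 arrays a group, and dim probes (Il1rn, 2 of Il1b, 1 of Il6st) by background.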
